A study of Mus musculus with 16 samples.

Results

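The apolipoproteins are the protein coats of the blood's lipoprotein particles, together with a few lipid-carrying plasma proteins that share the name. They were taken here as every probe annotated to a single gene that is Apoc1, Apoh or Apob, or whose symbol starts with Apoa, Apoc, Apod, Apoe or Apom. The rule gave 10 probes for 10 genes (Apoa1, Apoa2, Apoa5, Apoc1, Apoc2, Apoc4, Apod, Apoe, Apoh and Apom) out of 20419 probes, of which 11723 had a single gene symbol. No probe carried the symbol of Apob, Apoa4 or Apoc3, which were not analysed here, and no probe named an apolipoprotein beside another gene.

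RNA came from kidney and liver of 3 male wildtype mice of the inbred strain C3HeB/FeJ, aged 105 ± 5 days, with no treatment. On 7 arrays with 2 colours the kidney of mouse 1, 2 or 3 (3, 3 and 1 arrays) was set against a pool of RNA from 5 livers, while 9 arrays set the livers of these mice (3 arrays each) against a pool from 5 kidneys. They are called kidney arrays and liver arrays below. All arrays of a kind share their pool, so the spread between pools was not measured, and repeat arrays of a mouse and organ were averaged before testing (n = 3 mice per organ).

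Apolipoproteins let triglyceride and cholesterol travel in blood. Structural members hold the particle together, small C apolipoproteins switch the enzyme lipoprotein lipase on or slow particle uptake, and apolipoprotein E docks particles on receptors. The liver makes most of them, while the kidney filters small, lipid-poor forms and takes them back up in the proximal tubule through the receptors cubilin and megalin. ApoM and apoD belong to another protein family, the lipocalins, which hold small lipids in a cup-like pocket.

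All values are log2 ratios of kidney over liver, so negative values mean more RNA in liver. They are ratios of both channels of an array and say nothing about how abundant a transcript is. Which channel was divided by which is not stated, and titles put the single animal before the pool. Albumin (Alb), the main plasma protein made by hepatocytes, had a mean deposited value of 8.44 on kidney arrays and -7.57 on liver arrays, and Kap, an androgen-regulated kidney transcript, -5.77 and 6.08. The direction was taken from these markers, against the order of the titles. Read in title order, every kidney and liver below would change places, with the same sizes and tests.

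The genes analysed lie in 2 tight clusters or singly on other chromosomes (RefSeq, GRCm38.p6). Apoc2 (chr7:19671579-19677941), Apoc4 (chr7:19678084-19681460), Apoc1 (chr7:19689480-19692659) and Apoe (chr7:19696244-19701310) span 29732 bases. Apoa1 (chr9:46228630-46230469) and Apoa5 (chr9:46268608-46271921) frame a stretch of 43292 bases that also holds Apoc3 and Apoa4. Apoa2 is at chr1:171221564-171226379, Apoh at chr11:108395297-108414396, Apod at chr16:31296192-31314808 and Apom at chr17:35128997-35131801. The annotation names the gene of a probe but not which exon or UTR it covers.

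Promoter sequence is shown for members on the liver and the kidney side. RefSeq windows from 250 bases before to 50 after a start were at hand for 9 of the 10 members, in 13 windows, and none for Apoc1. Those of 3 members are shown over the 250 bases before the start, 5′ to 3′ along the gene, with motif letters in capitals: Apoh (chr11:108395047-108395296, plus strand) and Apoa5 (chr9:46268358-46268607, plus strand), both higher in liver, and Apom (chr17:35131802-35132051, minus strand), the member on the kidney side.
Apoh: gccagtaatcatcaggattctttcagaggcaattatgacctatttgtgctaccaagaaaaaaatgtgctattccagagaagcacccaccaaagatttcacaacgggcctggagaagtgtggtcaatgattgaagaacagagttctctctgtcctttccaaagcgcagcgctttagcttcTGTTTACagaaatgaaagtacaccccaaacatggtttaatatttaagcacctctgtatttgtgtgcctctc
Apoa5: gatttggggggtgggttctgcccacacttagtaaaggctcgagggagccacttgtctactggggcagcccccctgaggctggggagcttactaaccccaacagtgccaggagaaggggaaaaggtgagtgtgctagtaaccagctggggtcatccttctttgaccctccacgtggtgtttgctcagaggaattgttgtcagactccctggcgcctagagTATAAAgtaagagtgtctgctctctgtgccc
Apom: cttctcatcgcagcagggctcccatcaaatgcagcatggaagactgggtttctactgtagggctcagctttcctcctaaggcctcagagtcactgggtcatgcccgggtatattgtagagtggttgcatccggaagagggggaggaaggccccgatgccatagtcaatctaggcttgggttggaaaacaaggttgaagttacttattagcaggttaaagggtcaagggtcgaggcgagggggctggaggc
The letters searched on both strands were TATAAA, the HNF1 site, CAAAGTCCA and TGNACTTTG (HNF4), TTGCGCAA and TTGCNNAA (C/EBP; the first is contained in the second) and TGTTTAC (forkhead factors). TGTTTAC stood 71 bases before the start of Apoh, in a window of Apoa2 and in one of Apoe, so in 3 of 13 windows against 3.65% of all 32851. TATAAA stood 31 bases before the start of Apoa5 and was in 4 of 13 windows, of Apoa2, Apoa5 and Apoe, against 13.6% of all. Overlapping windows of Apoa5 hold the same letters, 56 bases before its other start, so this site is counted more than once. TTGCNNAA was in 1 window, of Apoa2, against 10.8% of all. The HNF1, HNF4 and TTGCGCAA letters were in no member's window, against 0.122%, 0.475% and 1.41%, and 0.183% of all. The windows of Apom and Apod, and those of Apoa1, Apoc2 and Apoc4, which were higher in liver, held none of the letters searched. Apoa2 and Apoe, which held matches, did not pass the test of the organ difference given below. A match describes letters only.

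Of the 10 apolipoprotein probes, 6 were higher in liver, 1 was higher in kidney and 3 did not pass (limma, Benjamini-Hochberg adjusted p under 0.05 over all 18670 probes tested). Of all probes tested, 12.6% passed, with 7.45% higher in liver and 5.18% higher in kidney. The median of the 10 genes was -3.89, against -0.48 over 9047 genes. The 6 in liver excess were Apoc1, Apoh, Apoa5, Apoa1, Apoc2 and Apoc4, between 10.1-fold and 223-fold, each below 0 on all 16 arrays. They passed in each alternative setting run on them, with adjusted p of at most 0.0117 (limma, Benjamini-Hochberg).

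**Figure D1:**
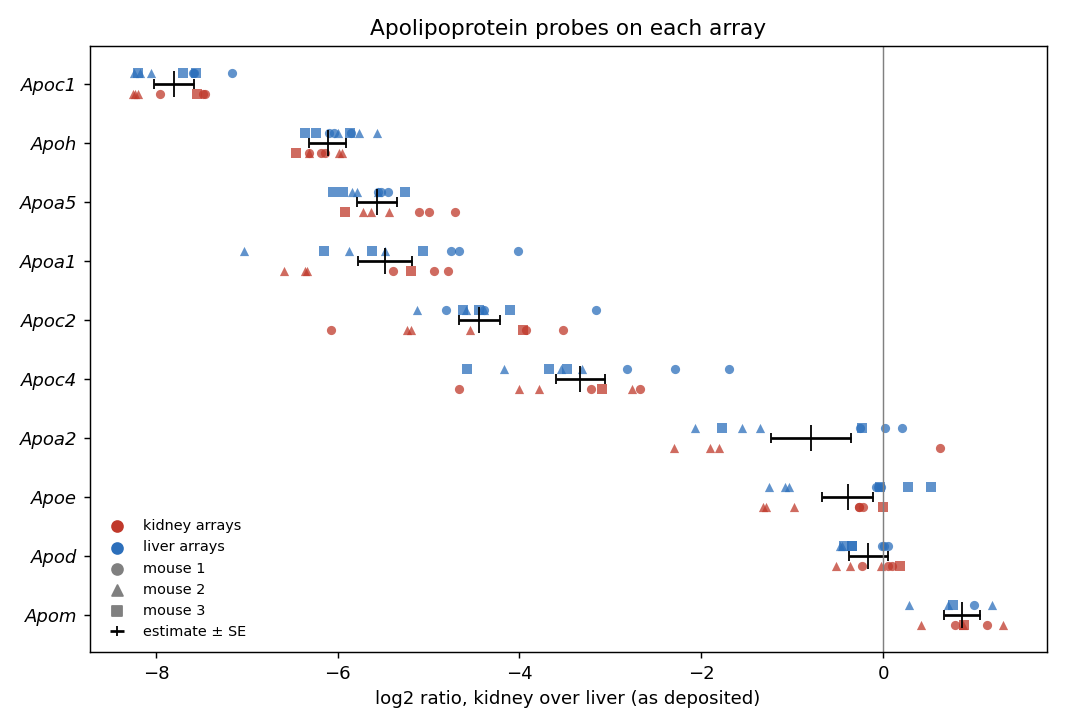
Log2 ratio of kidney over liver (horizontal axis, as deposited and turned to one direction) of each apolipoprotein probe on each array, with kidney arrays in red, liver arrays in blue and a symbol for each mouse; black marks give the fitted estimate ± SE (n = 3 mice per organ, except 2 for Apoa2 in kidney). Apoc1 lies between -8.25 and -7.16 on all arrays, Apom between 0.29 and 1.32 on the 11 arrays with a value.

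Among the proteins of triglyceride-rich particles, Apoc1 had the largest liver excess. It encodes a small exchangeable apolipoprotein that slows particle uptake and lipase action. On the kidney arrays it ranged from -8.25 to -7.46 with a median of -7.96, and on the liver arrays from -8.24 to -7.16 with a median of -7.70. Mouse averages were -7.63, -8.23 and -7.55 on kidney arrays and -7.44, -8.15 and -7.82 on liver arrays for mice 1, 2 and 3. Both kinds of array had a mean of -7.80, with mouse 2 lowest in each as deposited. After centring mouse 2 was highest in each, at -6.85 and -6.82. The estimate was -7.80 (SE 0.22, adjusted p 9.02e-07, limma), a 223-fold excess, and it was the ninth of 18670 probes counted from the liver end.

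Apoc2, the cofactor that lipoprotein lipase needs, ranged from -6.07 to -3.52 (median -4.54) on kidney arrays and from -5.13 to -3.16 (median -4.44) on liver arrays. Its repeat arrays scattered widely in mouse 1, whose 3 kidney arrays read -3.93, -3.52 and -6.07 (SD 1.37), and less in mouse 2 (SD 0.39). The estimate was -4.44 (SE 0.23, adjusted p 8.53e-06, limma), 21.8-fold. Apoc4, a minor component of very low density lipoprotein, ranged from -4.67 to -2.67 on kidney arrays and from -4.58 to -1.69 on liver arrays. Its averages on the liver arrays were -2.27, -3.67 and -3.91, so mouse 1 showed the smallest difference there, while its averages on the kidney arrays were -3.51, -3.52 and -3.09. The estimate of -3.33 (SE 0.27, adjusted p 9.46e-05, limma) is 10.1-fold.

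Apoa5, which helps lipoprotein lipase clear triglyceride, was at -4.94, -5.60 and -5.92 on the kidney arrays of mice 1, 2 and 3 and at -5.51, -5.73 and -5.75 on their liver arrays. The SD between mice was 0.13 on liver arrays and 0.50 on kidney arrays as deposited. After centring, mouse 2 moved to -4.39 on liver arrays and -4.22 on kidney arrays, the smallest differences of the 3 mice. Its estimate was -5.57 (SE 0.22, adjusted p 2.38e-06, limma), a 47.6-fold liver excess.

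Of the proteins of high density lipoprotein, Apoa1, its main structural protein and the activator of cholesterol esterification, was as far on the liver side as Apoa5. Its averages were -5.04, -6.43 and -5.19 on kidney arrays and -4.48, -6.13 and -5.61 on liver arrays, with mouse 2 lowest in both as deposited and in neither after centring (-5.06 and -4.79). The estimate was -5.48 (SE 0.30, adjusted p 1.12e-05, limma), 44.6-fold. Apoa2, the second protein of these particles, gave a different picture. It had a value on 12 of 16 arrays and none in the kidney of mouse 3. The 3 kidney arrays of mouse 2 read -1.90, -1.80 and -2.30 and the only kidney array of mouse 1 with a value 0.63, while the liver averages were -0.01 in mouse 1 and -1.66 in mouse 2, and the liver arrays of mouse 3 read -1.77 and -0.23. Its estimate of -0.79 (SE 0.44, 95% interval -1.82 to 0.25, adjusted p 0.211, limma) did not pass.

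Apoe, the receptor ligand that liver, macrophages and other tissues make, lay near 0 in mice 1 and 3 and lower in mouse 2. On the kidney arrays it ranged from -1.32 to 0.00 with a median of -0.26 and on the liver arrays from -1.26 to 0.53 with a median of -0.06. The 6 lowest arrays were those of mouse 2, from -1.32 to -0.98, while averages of the other mice lay between -0.24 and 0.26. The estimate of -0.39 (SE 0.28, 95% interval -1.03 to 0.24, adjusted p 0.284, limma) did not pass. It was 0.06 after centring each array on its median and -0.01 without mouse 2. With quantile normalization, where 62.3% of all probes were called higher in liver, and in a fit of kidney over liver blocked by mouse, where 67.8% were, Apoe (adjusted p 0.0103 and 0.00195, limma) and Apoa2 (0.0206 and 0.000701) were called higher in liver too. Of the Kupffer cell and macrophage list, 2 of 7 tested genes were higher in liver (against 8.71% of all genes), Clec4f (-1.91) and C1qa (-1.13, adjusted p 0.0565 after centring and 0.128 with the mouse as a block, limma). C1qb was at 0.31 and did not pass, and was called higher in kidney after centring (0.76, adjusted p 0.0152, limma). Marco was at -0.94 and did not pass, and was called higher in liver after centring (-0.49, adjusted p 0.0261, limma). Their part in the value of Apoe was not tested. In a whole organ, fewer cells of a type and less RNA per cell cannot be told apart.

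Apoh and the lipocalins are the members least tied to particle structure. Apoh encodes beta-2-glycoprotein I, a plasma protein that binds anionic phospholipids. It was at -6.21, -6.08 and -6.46 on the kidney arrays of mice 1, 2 and 3 and at -5.99, -5.78 and -6.15 on their liver arrays. All 16 arrays lay between -6.46 and -5.57. The estimate was -6.11 (SE 0.20, adjusted p 1e-06, limma), 69.2-fold in favour of liver. The SD between mice on the kidney arrays was 0.19 as deposited, but after centring mouse 2 stood apart, and the mice differed past the threshold in both organs (adjusted p 0.000258 and 9.7e-05, limma's moderated F).

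Apom carries sphingosine-1-phosphate on high density lipoprotein and is made by hepatocytes and by kidney tubules. It had a value on 11 arrays, and all 11 were above 0. The kidney arrays read 1.14 and 0.79 in mouse 1, 0.88, 0.42 and 1.32 in mouse 2 and 0.89 in mouse 3, and the liver arrays 1.00 in mouse 1, 0.71, 0.29 and 1.20 in mouse 2 and 0.77 in mouse 3. Averages of a mouse and organ were between 0.73 and 1.00. The estimate was 0.87 (SE 0.20, adjusted p 0.0246, limma), a 1.83-fold kidney excess. Taking the mouse as a replicate block, with each sample expressed over its pool, ended the call (0.87, SE 0.50, adjusted p 0.38, limma). All members but Apoa2 had an SE of 0.50 in that fit, so it does not measure the spread of Apom itself. The SD of Apom between mice was 0.05 on kidney arrays and 0.14 on liver arrays. In that fit 5.17% of all probes passed, 2.89% higher in liver and 2.29% higher in kidney. It was also lost without mouse 1 (0.82, adjusted p 0.221, with 1.66% of all probes higher in kidney) and without mouse 3 (0.89, adjusted p 0.187, with 1.69%). It was kept without mouse 2 (0.90, adjusted p 0.00112, with 18.5%). Apod, a lipocalin of glia, skin and other tissues, lay between -0.52 and 0.19 on 15 arrays and did not pass (-0.16, SE 0.21, adjusted p 0.549, limma). It was 0.29 after centring.

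The order from liver to kidney was Apoc1, Apoh, Apoa5, Apoa1, Apoc2, Apoc4, Apoa2, Apoe, Apod and Apom. Within an array, Apoc1 was below Apoh on 16 of 16, with differences from -2.48 to -1.09, and Apod below Apom on 10 of 10. Apoc4 lay below Apoa2 on 12 of 12. Apoh was below Apoa5 on 13 of 16 arrays, Apoa1 below Apoc2 on 14 and Apoc2 below Apoc4 on 14. Apoa5 and Apoa1 could not be ordered, with Apoa5 lower on 8 of 16 and a mean difference over mice of -0.09 ± 0.62 (SD, n = 3). The order of Apoa2, Apoe and Apod was also within the spread, with mean differences of -0.11 ± 0.80 (SD, n = 2) and -0.23 ± 0.51 (SD, n = 3). The smallest p that 3 mice allow in an exact test of such differences is above 0.05, so none is given.

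Neighbours on chromosome 7 covered nearly the whole range. Apoc1 and Apoe are separated by 3584 bases, yet the ratio of Apoc1 was below that of Apoe on all 16 arrays, by -6.91 to -8.73, with a mean over mice of -7.41 ± 0.39 (SD, n = 3). Apoc2, 142 bases from Apoc4, lay below Apoe by -4.05 ± 0.32 and Apoc4 by -2.94 ± 0.62 (SD, n = 3), on 16 of 16 arrays each. On chromosome 9 the outer genes Apoa1 and Apoa5 had like ratios.

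**Figure D2:**
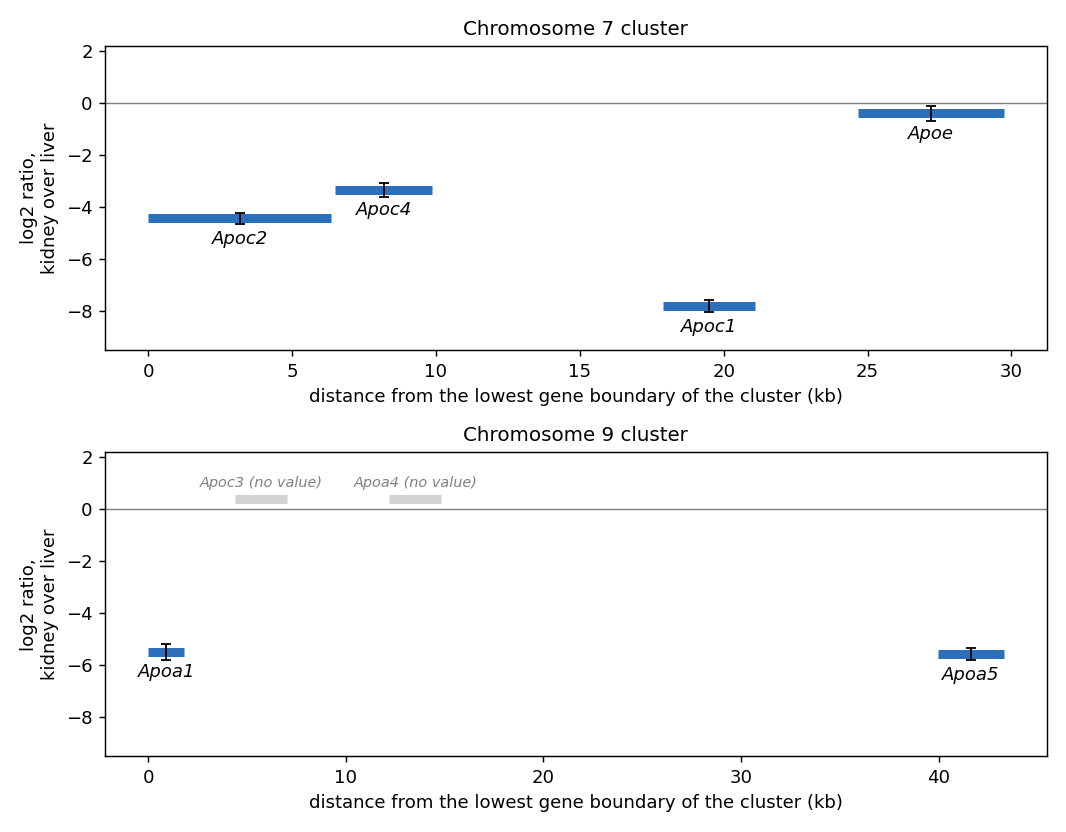
Log2 ratio of kidney over liver (vertical axis; estimate, with bars of ± SE, n = 3 mice per organ) of apolipoprotein genes in the chromosome 7 and chromosome 9 clusters against the distance in kb from the lowest gene boundary; bar length is gene length, and grey marks genes without a value here. Apoc1 at -7.80 and Apoe at -0.39 lie next to each other.

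Single kidneys against the liver pool and single livers against the kidney pool gave like ratios. The difference of both kinds of array ranged from -0.28 (SE 0.41) for Apoh to 0.23 (SE 0.42) for Apod. None of the 10 passed (limma, adjusted p 1 each), nor did any have an unadjusted p under 0.05, and 0% of all probes passed. This fit takes both averages of a mouse as independent, so shifts shared by both kinds of array widen the SE of their difference. The absence of calls is thus weak evidence of likeness. With the mouse as a block on kidney over liver, 0 members and 0.0964% of all probes passed.

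The mice differed within an organ mainly through mouse 2, whose arrays do not have the median ratio of 1 that the labels' protocols state. In the deposited direction, medians of mouse 2 lay between 1.19 and 1.49 on kidney arrays and between -1.35 and -1.32 on liver arrays. Those of the other 10 arrays were within 0.00267 of 0. Turned to kidney over liver, the medians of both kinds of mouse 2 array were below 0. Centring each array moved the median estimate over all probes from -0.53 to -0.06 and the 10 apolipoproteins by like amounts, and the 6 liver calls and that of Apom were kept. After centring 29.2% of all probes passed, 11.3% higher in liver and 17.8% higher in kidney, and the 6 members in liver excess lay between -7.35 and -2.88. As deposited, Apoh was alike in all mice. After centring, mouse 2 stood at -4.71 and -4.44 against -6.46 to -5.99 in the others. For Apoe the reverse held, with mouse 2 apart as deposited and within the others after centring (0.18 and 0.22 against -0.24 to 0.26). Apom in mouse 2 was 0.87 and 0.73 as deposited but 2.25 and 2.07 after centring, and Apod 1.07 and 0.87. Neither scale placed mouse 2 among the other mice for all members.

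**Figure D3:**
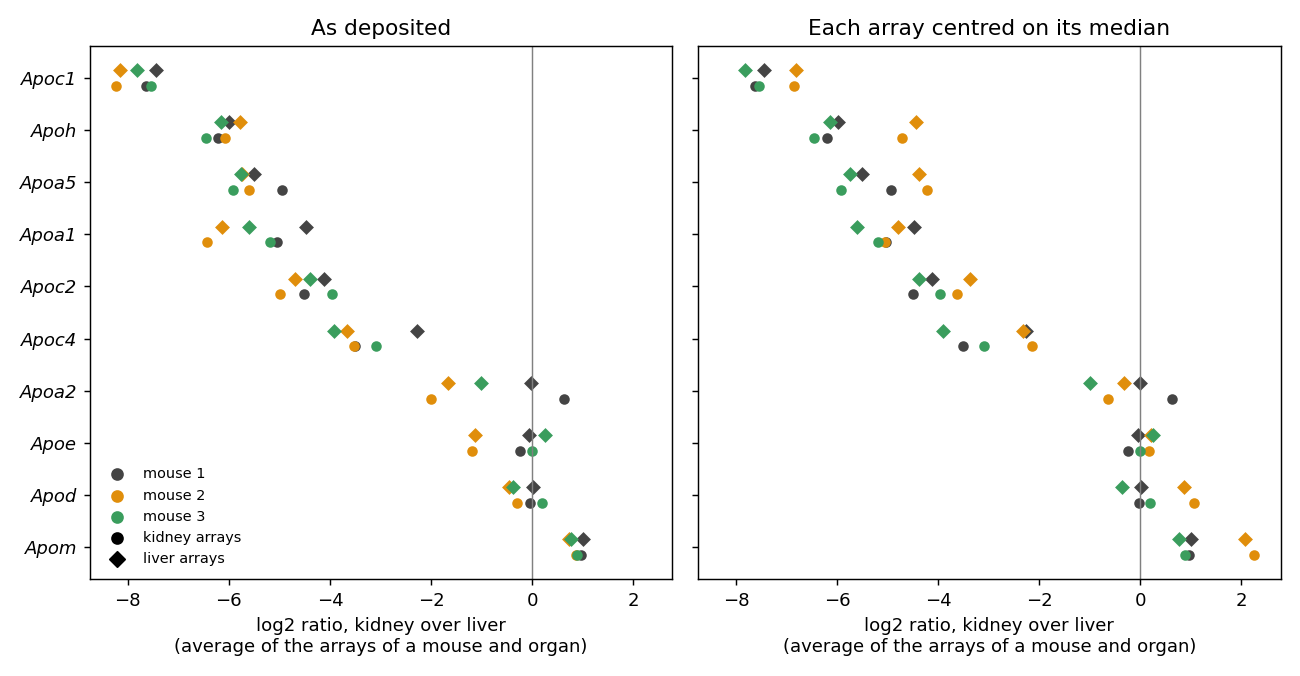
Averages of each mouse (colour) and organ (circles for kidney arrays, diamonds for liver arrays) as log2 ratio of kidney over liver, as deposited (left) and after centring each array on its median (right). Mouse 2 sits with the others for Apoh only on the left and for Apoe only on the right.

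On centred single arrays, 5 of 9 members tested differed between mice on the kidney arrays and 5 of 10 on the liver arrays (limma's moderated F, Benjamini-Hochberg adjusted p under 0.05), where 47.9% and 38.7% of all probes did. Apoa5, Apoc1, Apod and Apoh passed in both organs, Apom in kidney and Apoc4 in liver. As deposited the numbers were 4 of 9 and 6 of 10, against 73.9% and 86% of all probes. Without mouse 2 no member passed in either organ (unadjusted p under 0.05 for 1 of 9 and 3 of 9), against 0.0208% and 1.05% of all probes. Each mouse gave 1 RNA per organ, so these are differences between RNA samples.

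The 6 members in liver excess and the other 4 also differed in how often their exact value stood for another probe of the same array too. On the 10 arrays of mice 1 and 3, no value of Apoc1, Apoh, Apoa5, Apoa1, Apoc2 or Apoc4 recurred in this way. It did on 5 of 10 arrays for Apoe, 4 of 10 for Apod, 3 of 6 for Apoa2 and 2 of 5 for Apom. The median over 16463 probes with at least 8 values was 50%. Fewer probes lie at large ratios, so this share is not independent of the ratio. Spot intensities were not used here, and the part of background in these ratios was not tested.

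The genes with the most similar ratios were sought for Apoc1 and Apoh. By root mean square distance over the 6 averages among 7514 genes, the 5 closest to Apoc1 were Mug-ps1 (a pseudogene; 0.314), Hpx (hemopexin, which binds heme; 0.321), Hp (haptoglobin, which binds haemoglobin; 0.362), Mup3 (a major urinary protein; 0.431) and Fgb (fibrinogen beta chain; 0.436). Those closest to Apoh were Wfdc21 (0.326), Serpina3n (a protease inhibitor of the acute phase; 0.395), Ambp (the precursor of alpha-1-microglobulin and bikunin; 0.434), Abcb11 (the bile salt export pump; 0.567) and Orm1 (orosomucoid; 0.573). Their own estimates lay between -7.89 and -7.60, and between -6.24 and -5.69.

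Other genes of lipoprotein handling were tested from a list of 63, of which 29 could be tested as genes. Of these 10 were higher in liver, 5 higher in kidney and 14 did not pass, against 14.2% of 9047 genes (8.71% in liver and 5.47% in kidney). Their median was -0.64, and -0.48 over all genes. Centring gave 9 on the liver side and 8 on the kidney side, where 1124 and 1749 of all 9047 genes were called. The replicate block gave 8 and 4, against 421 and 251 of all genes. As deposited, 788 and 495 of all genes were called. Lcat, Lipc, Abca1 and Apob were not analysed here.

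Of 5 genes of particle assembly tested, 3 passed on the liver side and none on the kidney side (limma; 4 had an unadjusted p under 0.05). Mttp, the microsomal protein that loads lipid onto apolipoprotein B, was at -1.92 (SE 0.28, adjusted p 0.00195, limma), Plin2, a coat protein of lipid droplets, at -2.99 and Tm6sf2 at -1.06. The call of Tm6sf2 ended on centred arrays (-0.61, adjusted p 0.0787, limma) and with the mouse as a replicate block (adjusted p 0.161, limma).

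Receptors and their partners went both ways. Of 8 tested, 3 were higher in kidney and 1 in liver. Cubn (cubilin, the receptor that takes up apolipoprotein A-I) was at 5.16 (SE 0.31, adjusted p 9.82e-06, limma), Lrp2 (megalin) at 3.86 (SE 0.28) and Scarb1 (the receptor SR-BI for high density lipoprotein) at 0.91 (SE 0.20, adjusted p 0.018, limma; 0.25 with the mouse as a replicate block). Sdc1 (syndecan 1, a remnant receptor) was at -2.11, from probes at -3.29 and -0.51, of which the second did not pass. Amn, the membrane partner of cubilin, was at -0.66 and Lrpap1, the chaperone of megalin, at 0.10, and neither passed, although Lrpap1 did after centring (0.55, adjusted p 0.0458, limma). As deposited, the probes of Lrpap1 went opposite ways (0.64 and -0.43), neither with a call.

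Among 7 enzymes and transfer proteins, Pon1 (paraoxonase 1, carried on high density lipoprotein) was higher in liver (-4.88, SE 0.20, adjusted p 1.33e-06, limma), as was Dgat2, which makes triglyceride (-1.48). Lpl (lipoprotein lipase, which Apoc2 and Apoa5 act on) was higher in kidney (1.73, SE 0.21, adjusted p 0.000713, limma), with its 3 probes at 1.58, 1.23 and 2.29. Of 4 other plasma or apolipoprotein-named genes, Clu (clusterin, also called apolipoprotein J) was at -3.59, Saa4 at -2.18 and Apol6 at -1.40, each higher in liver. The probes of Saa4 gave -3.34 and -1.02, the second without a call, and Apol6 lost its call with the mouse as a replicate block (adjusted p 0.089, limma).

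Of 5 transcription factors, Nr5a2, a regulator of bile acid and cholesterol genes in liver, was higher in liver (-2.23), and Hnf4a, which binds promoters of many apolipoprotein genes, was higher in kidney (1.37, SE 0.21, adjusted p 0.00255, limma), by both probes (1.54 and 1.20). Nr1h4, Nr1h3 and Ppara were at 0.09, 0.05 and 0.44 and did not pass, although Ppara did after centring (0.89, adjusted p 0.0163, limma).

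**Figure D4:**
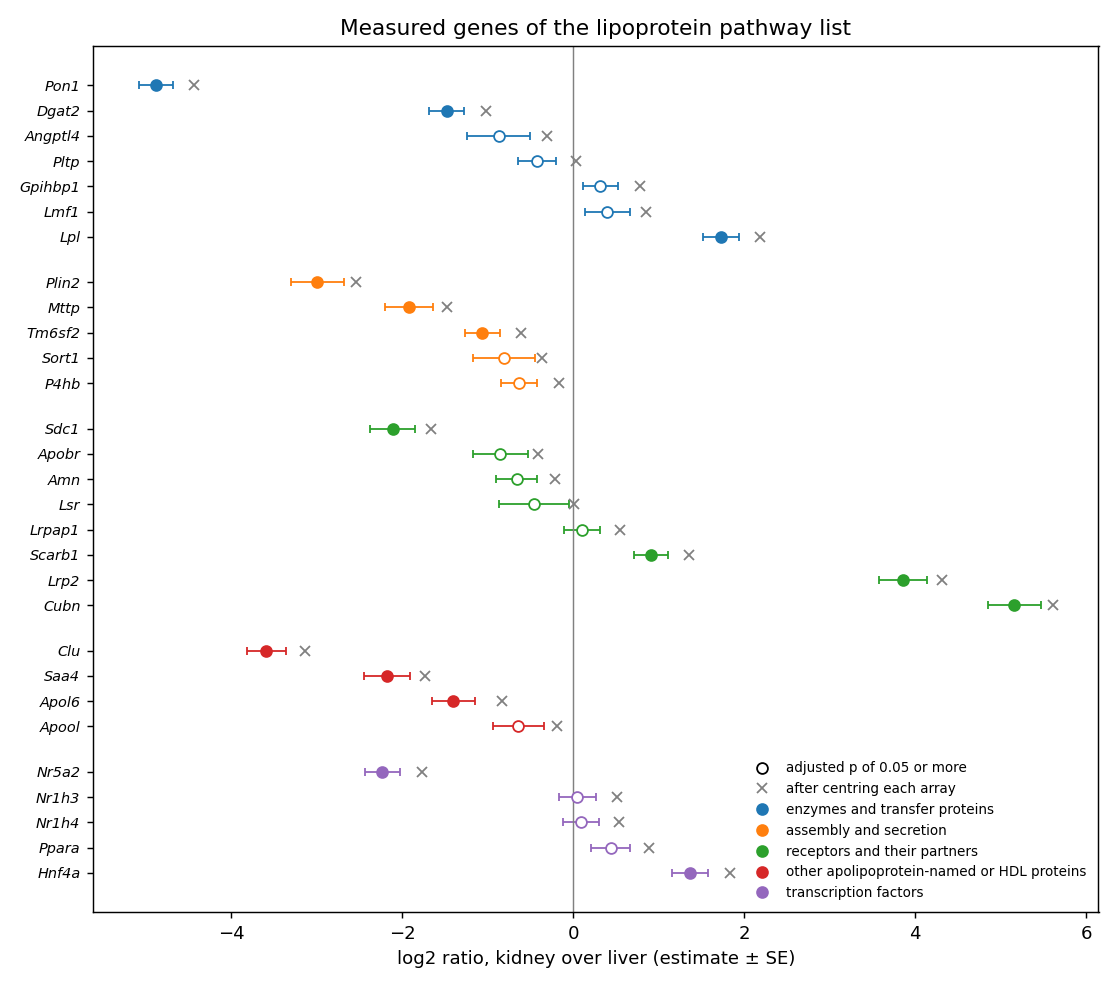
Log2 ratio of kidney over liver (estimate ± SE, from 2 or 3 mice per organ) of the 29 measured genes of lipoprotein handling, coloured by role; filled circles passed the adjusted p threshold, open circles did not, and grey crosses give the value after centring each array. Cubn at 5.16 and Pon1 at -4.88 mark the ends of the range.

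Marker genes went with the organ names under the direction used. All 10 hepatocyte genes were higher in liver (median -7.38) and all 9 proximal tubule genes tested higher in kidney (median 5.15), Cubn and Lrp2 among them. Alb and Kap, which set the direction, are counted in these lists. Fabp4 (1.54) of 4 adipocyte genes was higher in kidney, where 5.47% of all genes were. The others of that list, Adipoq (-0.72), Cidec (-0.34) and Retn (0.36), did not pass. None of 5 fibroblast genes (1 with an unadjusted p under 0.05) and not Alas2, the only blood gene tested (-0.61), passed (limma). After centring, Col1a1 (0.94, adjusted p 0.00291), Col1a2 (0.89, 0.00182) and Col3a1 (0.63, 0.00738) of the fibroblast list and Retn (0.93, 0.00324) of the adipocyte list were called higher in kidney (limma). Between 15480 and 19432 probes had a value on an array.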

How the data were processed

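Per the labels' protocols, 20 µg of total RNA was labelled with Cy3 or Cy5, slides were scanned with a GenePix scanner, GenePix Pro 3.0 gave background-subtracted mean intensities, and each slide's ratios were scaled to median 1. As deposited, the arrays of mouse 2 do not have this median. The deposited values are log2 ratios. The base was read from the values: of 144 distances between frequent values and the commonest one of an array, 140 matched log2 of a fraction of integers of at most 10 (tolerance 1e-04), 16 matched log10 and 0 the natural log. Dyes are not given in the sources used here.

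Values were turned to kidney over liver (minus the value on kidney arrays). Averages of a mouse and organ were fitted with limma 3.58.1 in R 4.3.3, with a mean and a term for the kind of array, keeping probes measured in 2 or more mice for each organ; all 10 members qualified. P-values are two-sided, adjusted by Benjamini-Hochberg over all probes or genes, with probes of a gene averaged for gene lists. The fit was tested on simulated data with independent noise in each average. That test cannot check the fit where both averages of a mouse are correlated. Mouse numbers mark the same animal on both kinds of array. Taken as sample over pool, deviations of the kidney and liver averages of mice 1, 2 and 3 had correlations of -0.591, -0.795 and -0.585 (14688 probes), which is positive as kidney over liver, so the fit, which takes both averages as independent, tends to give SE and p-values that are too small. Fits with the mouse as a replicate block, scaling, filters and left-out mice were alternatives. Members and lists were chosen with earlier results of these data known. Named were all members, called list genes with the largest changes (up to 6 in each direction) and a fixed set of receptors, enzymes and regulators, and the 5 genes nearest to Apoc1 and to Apoh. Gene names came from the platform annotation of the probes, updated through RefSeq, and figures from matplotlib 3.10.9.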

Additional observations from a re-analysis of the deposited data

Results flagged for a closer look

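Apoa2 on the first kidney array of mouse 1 was at 0.63, far from the 3 other kidney arrays with a value, all of mouse 2, which lay between -2.30 and -1.80. After centring each array, those 3 lay between -1.11 and -0.31, so the gap was smaller. The sample that stands apart is thus the only one of another mouse, and Apoa2 had no value on the other 3 kidney arrays. Of 20 sets of arrays checked in this way, chance alone would mark about 1 in 20. No member differed between kidney arrays and liver arrays by the test of that difference.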

How the results depend on the processing

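The number of the 10 apolipoprotein probes past the threshold was 7, and between 6 and 9 over the alternatives, with 6 to 8 higher in liver. Apom was the member called higher in kidney, and 0 members were with the mouse as a replicate block on single sample over pool, with the 2 organs of a mouse averaged first, on kidney arrays or liver arrays alone, among probes with a value on all arrays (where Apom was not tested), and 0 to 1 with a mouse left out. Its adjusted p ranged from 2.17e-05 to 0.414 (limma). In paired fits on single sample over pool, the other 9 members kept their side of the threshold. With the replicate block on kidney over liver, 82.6% of all probes passed, and with quantile normalization 72.9%; Apoa2 (-0.81 and -0.65) and Apoe (-0.39 and -0.46) passed in both. The cause was not tested. After centring, Apoe turned to 0.06 and Apod to 0.29, without a call. Arrays scaled to the same median absolute value, without centring, gave the largest size for the 6 members higher in liver, such as -9.55 for Apoc1. With mouse 2 left out and arrays centred, chosen after seeing the data, 7 members passed. Between mice, 0 to 7 members differed on kidney arrays and 0 to 6 on liver arrays with a mouse left out, with 0 without mouse 2. Of the lipoprotein list, 5 genes were higher in kidney, 8 after centring, and 3 to 7 with a mouse left out (10 to 19 in both directions). Over all 9047 genes, 495 were higher in kidney and 1749 after centring. With a mouse left out, between 1.66% and 18.5% of all probes were higher in kidney. No array intensities were used, so signal over background could not be set against these ratios.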

Other observations

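Among probes with an apolipoprotein name outside the rule, chosen after their values were seen, Apof, whose product is a plasma protein made in liver, did not pass (-0.76, SE 0.37, adjusted p 0.169, limma; -0.30 after centring), with arrays between -2.33 and 0.72. Its values recurred on 70% of the arrays of mice 1 and 3. Apol7b was at 0.32 (SE 0.22, adjusted p 0.271), Apool at -0.64 (SE 0.30, adjusted p 0.161) and Apobec2 at -0.17 (SE 0.37, adjusted p 0.721). Apol8 had a value on 5 arrays and was not tested.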
